A study of Mus musculus with 2 samples.

Results

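The RNA of 9 transcription factor genes that set the identity of epithelial cells was followed through the luminal, basal and seminal vesicle cells of mouse prostate tumours. The genes are Sox9, Sox4, Trp63, Foxa1, Hoxb13, Gata3, Elf3, Ehf and Klf5. They were taken by name from the 28000 features of both libraries, and all 9 were present once in each. The levels are counts of unique molecular identifiers (UMIs), each standing for 1 captured RNA molecule, from droplet single-cell RNA-seq of the 3′ ends of transcripts. There were 2 genotypes with 1 library each. DoubleTg is hHGFtg with H11 hMET/+ and PB Cre4, from a tumour labelled prostatic adenocarcinoma. TripleTg, labelled prostatic carcinoma, has the same alleles and Ctnnb1 L(Ex3)/+. Both therefore carried the human HGF transgene, which is expressed throughout the body, and the human MET transgene (hMETtg), which stays silent behind a lox-flanked stop until Cre removes it. Cre was driven by the probasin promoter of prostate epithelium, and only TripleTg also carried the Ctnnb1 allele from which Cre removes the exon that marks β-catenin for destruction. The mice were males of a mixed background. Neither their age nor how many animals went into a library is given in the sources used here. Counts of 3′ ends cannot show whether that exon was removed, nor can they separate the isoforms of Trp63. With 1 library per genotype no test was made, and every interval given here is a 95% interval that covers counting error only.

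Lineage transcription factors bind DNA at the enhancers and promoters of the genes that make a cell luminal, basal or secretory, and several of them hold one fate while blocking another. In the prostate gland, luminal cells face the duct and secrete, while basal cells lie beneath them on the basement membrane. Trp63 encodes p63, the p53 relative that basal cells of stratified and glandular epithelia need. Sox9 and Sox4 are HMG-box factors of progenitor cells, and Sox9 takes part in the budding of the prostate. Foxa1 is a forkhead pioneer factor that opens chromatin for other factors. Hoxb13 is a homeobox factor of the posterior body that is kept in adult prostate epithelium. Gata3 is a zinc-finger factor best known in the luminal cells of the breast. Elf3 and Ehf are ETS factors found mainly in epithelia, and Klf5 is a Krüppel-like zinc-finger factor of proliferating epithelium.

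On mouse genome build GRCm38 the gene spans lie on 7 chromosomes, with Gata3 and Ehf both on chromosome 2 and Hoxb13 and Sox9 both on chromosome 11. Sox4 lies at chr13:28948919-28953713 on the minus strand and is overlapped on the opposite strand by Gm26735. Gata3 lies at chr2:9857078-9890034 on the minus strand and is overlapped by 9230102O04Rik on its own strand and by Gm13256 and 4930412O13Rik on the other. Elf3 lies at chr1:135253575-135258568 on the minus strand, overlapped on the other strand by Gm26642. Trp63 lies at chr16:25683763-25892102 on the plus strand, where neither gene that overlaps it had a feature. Sox9 (chr11:112782224-112787760, plus strand), Hoxb13 (chr11:96194316-96197447, plus strand), Klf5 (chr14:99298691-99315036, plus strand), Foxa1 (chr12:57540628-57546916, minus strand) and Ehf (chr2:103263433-103303278, minus strand) overlap no other annotated gene. The genes that overlap Sox4 and Gata3 had counts of their own, given with the comparisons of the genotypes.

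The RefSeq promoter table (GRCm38.p6, 250 bases before to 50 bases after a transcript start) had an entry for 4 members, Sox4, Gata3, Foxa1 and Elf3. Sox9, Trp63, Hoxb13, Ehf and Klf5 were not matched. The promoters of Sox4, Gata3 and Foxa1 are printed because the first pair stood higher in every TripleTg luminal cluster and Foxa1 stood lower in the same class. Each reads 5′ to 3′ on the minus strand. Capitals mark the CCAAT box (CCAAT or ATTGG) in Sox4, the GC box (GGGCGG or CCGCCC) in Gata3, and the GC box and the forkhead motif (TGTTTAC or GTAAACA) in Foxa1.
Sox4 promoter, chr13:28953650-28953949: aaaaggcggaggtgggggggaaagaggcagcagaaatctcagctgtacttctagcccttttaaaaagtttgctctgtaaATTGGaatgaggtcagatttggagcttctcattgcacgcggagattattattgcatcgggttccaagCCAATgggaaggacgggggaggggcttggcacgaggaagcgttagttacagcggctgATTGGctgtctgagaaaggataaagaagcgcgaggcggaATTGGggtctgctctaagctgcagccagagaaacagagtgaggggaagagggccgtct
Gata3 promoter, chr2:9878551-9878850: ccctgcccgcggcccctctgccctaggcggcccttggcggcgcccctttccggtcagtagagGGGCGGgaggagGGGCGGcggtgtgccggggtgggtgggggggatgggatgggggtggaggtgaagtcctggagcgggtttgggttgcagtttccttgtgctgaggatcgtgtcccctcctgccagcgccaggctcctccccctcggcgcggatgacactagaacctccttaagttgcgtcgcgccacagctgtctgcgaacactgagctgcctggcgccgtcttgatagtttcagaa
Foxa1 promoter, chr12:57546062-57546361: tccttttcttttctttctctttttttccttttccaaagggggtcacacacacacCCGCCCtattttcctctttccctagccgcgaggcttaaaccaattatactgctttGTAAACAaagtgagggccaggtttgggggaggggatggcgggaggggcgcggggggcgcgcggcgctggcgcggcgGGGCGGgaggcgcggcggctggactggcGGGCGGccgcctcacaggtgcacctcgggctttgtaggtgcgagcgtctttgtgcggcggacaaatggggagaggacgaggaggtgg
The starts that RefSeq gives for Gata3 and Foxa1 lie inside the gene spans above, so other starts of these genes are not shown. The Sox4 window held 4 CCAAT boxes on the 2 strands, a motif found in 37.4% of the 32851 promoters in the table. The Gata3 window held 2 GC boxes and the Foxa1 window 3, against 35.7% of promoters with at least 1. The forkhead motif, present once in the Foxa1 window, was in 3.65% of promoters. No window of the 4 members held the TCF/LEF motif (CTTTGAA or CTTTGAT, either strand), which 8.65% of promoters held. No motif searched contains the letters of another. The GC content was 52.0% in Sox4, 67.3% in Gata3 and 62.3% in Foxa1, with a median of 52.7% over all promoters.

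Of 12072 DoubleTg cells, 10598 met the limits set on genes (more than 200, fewer than 7000) and on mitochondrial UMIs (less than 15%), and all 9492 TripleTg cells met these limits. The TripleTg matrix was thus already filtered as deposited, with at most 6995 genes in a cell, and the DoubleTg matrix, with up to 8876, was not. The kept libraries held 256880958 and 229655259 UMIs, with medians of 16761 and 20097 per cell, and they shared 30 cell barcodes. Clusters made in each library without the 9 genes gave 4989 luminal-like cells in DoubleTg and 4662 in TripleTg, 1916 and 1258 basal-like cells, and 127 and 571 seminal vesicle-like cells. Seminal vesicle markers summed to 364195 CPM (UMIs of a gene per 1000000 UMIs of the class) in the DoubleTg seminal vesicle-like cells and 448543 CPM in those of TripleTg. In luminal-like cells the same markers summed to 77.1 CPM in DoubleTg and 1336 CPM in TripleTg. Basal markers summed to 15128 CPM in DoubleTg and 5353 CPM in TripleTg basal-like cells, and to 452 and 256 CPM in luminal-like cells. Macrophage-like cells, which should lack most of the 9 factors, served as a measure of background. Their epithelial markers summed to 695 CPM in DoubleTg and 4426 CPM in TripleTg, so epithelial RNA in this class was higher in the TripleTg library.

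The background was read for each factor in macrophage-like cells and, beside them, in the other non-epithelial classes. In DoubleTg macrophage-like cells it ran from 0 CPM (0 to 1.14) for Trp63 in 275 cells to 33.8 CPM for Sox9. The T and NK-like and fibroblast-like cells of DoubleTg, which are shallower, held more, with Hoxb13 at 37.3 and 39.7 CPM, Foxa1 at 36.5 and 29.8 CPM and Klf5 at 53.0 and 77.7 CPM. Sox9 was 181 CPM in the first and 262 CPM in the second, and Gata3, a factor that T cells use themselves, was 66.0 and 23.7 CPM. In TripleTg macrophage-like cells Sox9 stood at 96.8 CPM, Sox4 at 92.0, Gata3 at 75.8, Ehf at 75.6, Klf5 at 42.2 and Elf3 at 36.5. Foxa1 stood at 16.2 CPM there, Hoxb13 at 3.15 and Trp63 at 0.450. The TripleTg background of Sox4 lay above the level of Sox4 in DoubleTg luminal-like cells, and that of Gata3 was about level with Gata3 there. The part that free RNA and mixed droplets have in the epithelial levels was not tested. Sox4 in DoubleTg luminal-like cells, at 38.6 CPM, was also below the 93.8 CPM of DoubleTg fibroblast-like cells. Endothelial-like cells held Sox4 at 799 CPM in DoubleTg and 602 CPM in TripleTg, more than any luminal-like or basal-like cluster. Whether the non-epithelial classes express a factor themselves was not tested, so their levels may overstate the background.

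Trp63 separated the basal from the luminal class in both tumours. It stood at 15.9 CPM (14.5 to 17.5) in DoubleTg basal-like cells and at 0.173 CPM (0.120 to 0.242) in luminal-like cells. The TripleTg levels were 57.5 CPM (54.9 to 60.3) in basal-like and 0.287 CPM (0.206 to 0.389) in luminal-like cells. The log2 ratios of basal-like over luminal-like cells were 6.52 in DoubleTg and 7.65 in TripleTg. Every basal-like cluster exceeded every luminal-like cluster, the lowest basal value being 13.9 CPM in the Aqp3-led DoubleTg cluster and the highest luminal value 1.03 CPM in the Rsad2-led DoubleTg cluster.

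Hoxb13 showed the opposite order. It was 127.7 CPM in DoubleTg luminal-like cells, 12.8 CPM in basal-like cells and 7.45 CPM in seminal vesicle-like cells. The non-epithelial classes of DoubleTg ran from 5.27 CPM in macrophage-like to 39.7 CPM in fibroblast-like cells, so neither of the lower values stood above background. In TripleTg it was 18.4, 6.65 and 1.20 CPM in the same order, with a background of 3.15 CPM. The basal-like over luminal-like log2 ratio was −3.32 (−3.47 to −3.17) in DoubleTg and −1.47 (−1.69 to −1.27) in TripleTg. The seminal vesicle-like value of TripleTg lay below the background and is read as background, not as expression.

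The other factors were shared by the luminal and basal classes to different extents. Sox4 was basal in DoubleTg, at 207 CPM against 38.6 CPM in luminal-like cells, a log2 ratio of 2.42 (2.37 to 2.47). In TripleTg the order was turned, with 170 CPM in basal-like and 285 CPM in luminal-like cells, a log2 ratio of −0.75 (−0.79 to −0.71). Sox9 was lower in basal-like cells of both libraries, with log2 ratios of −0.49 in DoubleTg and −1.65 in TripleTg. Gata3 was lower in basal-like cells by −0.44 in DoubleTg and −1.47 in TripleTg on the log2 scale. The ETS factors were also lower there, Elf3 with log2 ratios of −1.34 and −0.55 and Ehf with −0.75 and −0.40 in DoubleTg and TripleTg. Klf5 differed little between the classes in DoubleTg, with a log2 ratio of −0.03 (−0.08 to 0.01), and was higher in TripleTg basal-like cells, with 0.45 (0.41 to 0.49). Foxa1 had small ratios of 0.10 and 0.25, and the DoubleTg one took the other sign, −0.11, when libraries were scaled by trimmed means (TMM).

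Counted at a 2-fold difference, all 9 factors passed a floor of 5 CPM in one of the classes in both libraries, Trp63 through the basal-like class alone. In DoubleTg Sox4 and Trp63 were at least 2-fold higher in basal-like cells, where 18.2% of the 9198 genes above the floor were. Hoxb13 and Elf3 were at least 2-fold lower, as were 19.4% of genes. In TripleTg Trp63 was the only factor higher, against 10.7% of 9028 genes, and Sox9, Hoxb13 and Gata3 were lower, against 7.02%. The median log2 ratio of the factors was −0.44 in DoubleTg and −0.55 in TripleTg, beside medians over all genes of 0.11 and 0.00.

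Within the luminal class of DoubleTg, the 10 clusters differed in their mix of factors, and the cluster led by Sbp and Sbpl, genes of secretory prostate proteins, stood furthest to one side. It held the lowest level of Sox9 (209 CPM), Sox4 (12.2), Foxa1 (73.6), Gata3 (21.1), Elf3 (43.9) and Klf5 (117) among the 10 clusters, and the highest level of Hoxb13 (243 CPM). Relative to the other luminal-like cells its log2 ratios were −1.62 for Sox9, −1.85 for Sox4, −1.43 for Elf3 and 1.21 for Hoxb13. How many of all genes were lowest in the Sbp-led cluster was not counted. The part of abundant secretory RNA, which lowers the CPM of other genes, was not tested there. The Gsdmc2-led cluster was the reverse of the Sbp-led one for several factors. It had the highest Foxa1 (236 CPM), Elf3 (279.7) and Klf5 (341) and the lowest Hoxb13 (44.6).

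Other DoubleTg clusters stood out for 1 or 2 factors each. Gata3 was highest in the cluster led by C1rb and Tgm4, at 169 CPM, with a log2 ratio of 1.39 over the other luminal-like cells. Sox9 was highest in the Prr9-led cluster at 789 CPM, and Ehf in the Spink5-led cluster at 285 CPM. Hoxb13 reached 234 CPM in the Spink5-led cluster and was low in the clusters led by Msln (49.9), Prr9 (61.1) and Rsad2 (77.5). Sox4 was highest, at 91.4 CPM, in the cluster led by the proliferation gene Ube2c, yet this was still below its level in either DoubleTg basal-like cluster (146 and 224 CPM). Across the 10 clusters the ratio of highest to lowest was 8.03 for Gata3, 7.51 for Sox4, 6.37 for Elf3, 5.46 for Hoxb13, 3.78 for Sox9, 3.20 for Foxa1, 2.92 for Klf5 and 1.91 for Ehf.

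The 8 luminal-like clusters of TripleTg varied less in most factors. The highest level was 1.80 times the lowest for Gata3, 1.82 for Sox4, 2.37 for Sox9, 3.22 for Hoxb13, 1.62 for Foxa1, 1.43 for Klf5 and 1.36 for Ehf, and only Elf3, with 5.41, kept a wide range. These ranges were not tested against those of DoubleTg. Elf3 was 270 CPM in the Fam213a-led cluster and 264 CPM in the cluster led by the α-defensin genes Defa22 and Defa21, but 49.9 CPM in the Tgm4-led cluster. Gata3 had its highest level, 416 CPM, in the Defa22-led cluster, where Sox9 (248 CPM) and Hoxb13 (9.12) were at their lowest. The Tgm4-led cluster was the reverse, with the highest Sox9 (588 CPM) and Hoxb13 (29.4) and the lowest Sox4 (198), Ehf (279) and Elf3.

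**Figure D1:**
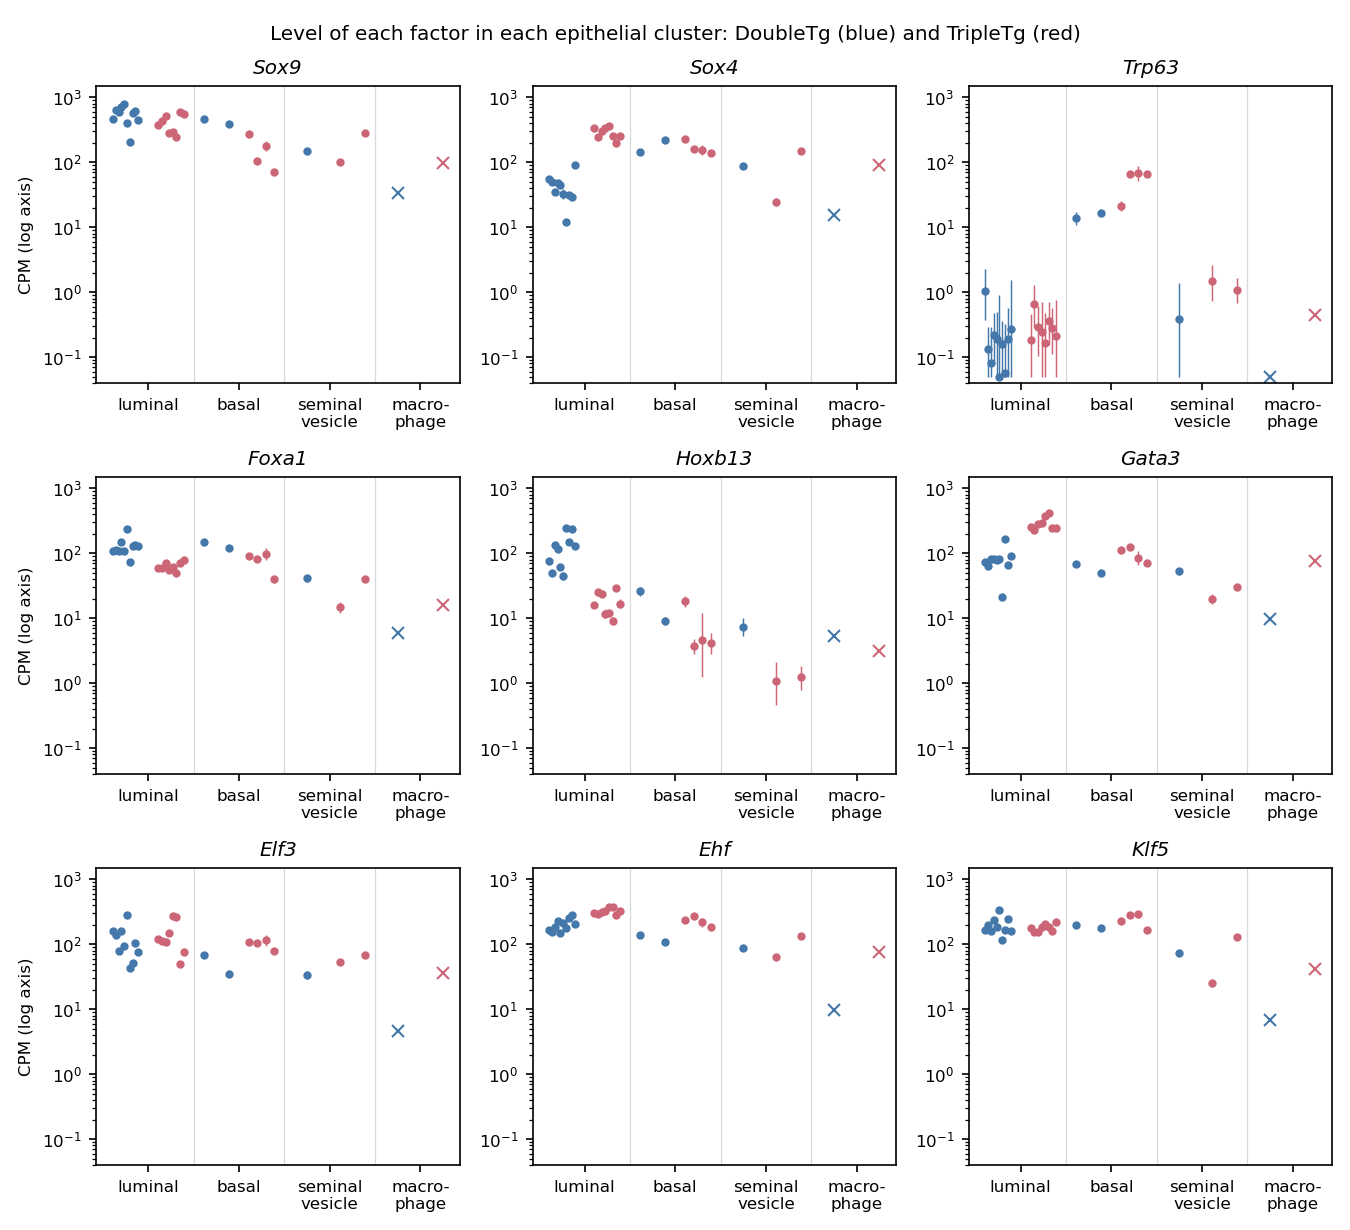
Level in CPM (log axis) of each of the 9 factors in every cluster of the 3 epithelial classes of DoubleTg (blue) and TripleTg (red), with 95% Poisson bars and values under 0.05 drawn at 0.05; crosses are macrophage-like cells, the background. The TripleTg luminal points of Sox4 and Gata3 all lie above the DoubleTg ones and those of Hoxb13 all lie below, and Trp63 is above 10 CPM only in basal-like clusters.

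The comparison of the genotypes asks how the factors differ between the DoubleTg library and the TripleTg library, whose mice also carried the Ctnnb1 allele. Genotype cannot be told apart here from the animals, their age, the library, its filtering or its background. The luminal-like clusters led by Sbp, Msmb and Spink5 were found in DoubleTg only. The part of the Ctnnb1 allele in the differences below was therefore not tested. In the luminal class Sox4 and Gata3 were higher in TripleTg and Hoxb13 was lower. Sox4 was 38.6 CPM (37.7 to 39.5) in DoubleTg and 285 CPM (282 to 288) in TripleTg, a 7.39-fold difference. Gata3 was 73.9 CPM (72.7 to 75.1) and 298 CPM (295 to 301), a 4.03-fold difference. Hoxb13 was 127.7 CPM (126 to 129) in DoubleTg and 18.4 CPM (17.8 to 19.2) in TripleTg, 6.92-fold lower. The log2 ratios of TripleTg over DoubleTg were 2.88 (2.85 to 2.92) for Sox4, 2.01 (1.98 to 2.04) for Gata3 and −2.79 (−2.85 to −2.73) for Hoxb13.

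None of these 3 factors overlapped between the libraries at the level of clusters. The lowest TripleTg cluster held Sox4 at 198 CPM and the highest DoubleTg cluster at 91.4 CPM. For Gata3 these values were 232 and 169 CPM. For Hoxb13 the highest TripleTg cluster held 29.4 CPM and the lowest DoubleTg cluster 44.6 CPM. Among all 9050 genes above the floor, 7.15% had every TripleTg luminal-like cluster above every DoubleTg one and 6.17% had every one below, and clusters of 1 library are not replicates. The same separation held when the clusters were made coarser (resolution 0.5, 7 and 6 clusters) and finer (resolution 2, 13 and 12 clusters), and in the coarser clusters Foxa1 also lay below and Ehf above without overlap.

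The remaining luminal factors differed by less than 2-fold. Foxa1 was 116.9 CPM in DoubleTg and 62.7 CPM in TripleTg, a log2 ratio of −0.90 (−0.93 to −0.86), and reached −1.02 when genes holding over 1% of UMIs were left out of the totals. Ehf was 194 and 325 CPM, with a log2 ratio of 0.74, and Elf3 was 107 and 148 CPM, with 0.47. Sox9 was lower in TripleTg, 413 against 572 CPM, a log2 ratio of −0.47 (−0.48 to −0.45). Klf5 was near equal at 179 and 186 CPM, a log2 ratio of −0.06. Trp63 was at the edge of detection, with 34 UMIs in DoubleTg and 41 in TripleTg, and did not pass the floor. Of the 8 factors that passed, 2 were at least 2-fold higher, a direction shared by 11.7% of genes, and 1 was lower, a direction shared by 12.7%. Their median log2 ratio was 0.21, against −0.01 over all genes.

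The genes that overlap Sox4 and Gata3 were low in comparison but did not stay level. Gm26735, antisense to Sox4, was 1.92 CPM in DoubleTg and 29.4 CPM in TripleTg luminal-like cells. On the strand of Gata3, 9230102O04Rik was 13.2 and 20.7 CPM. Each of these was below the level of its partner, and reads that the counting could have split or dropped between them cannot be told apart here.

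Clusters with like leading genes in both libraries were also compared. These were a Tgm4-led cluster, a cluster led by interferon-response genes (Ifit3, Rsad2) and one led by proliferation genes (Ube2c). The interferon and proliferation pairs share a cell state, and their luminal types may differ between the libraries. Sox4 was 31.9 CPM in DoubleTg and 198 in TripleTg for the Tgm4-led clusters, 55.0 and 257 for the interferon clusters, and 91.4 and 245 for the proliferation clusters. Hoxb13 was 152 and 29.4 CPM, 77.5 and 16.8 CPM, and 128.7 and 25.3 CPM in the same order. Both factors thus lay on the same side in all 3 pairs, with log2 ratios of 2.63, 2.22 and 1.42 for Sox4 and −2.37, −2.20 and −2.35 for Hoxb13.

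Gata3 was also higher in TripleTg in all 3 pairs. Its log2 ratio was 0.52 (0.46 to 0.59) in the Tgm4-led pair, where DoubleTg was already at 169 CPM, and 1.72 and 1.35 in the other pairs. Foxa1 was lower in TripleTg in all 3 pairs, with log2 ratios of −0.84, −0.42 and −1.09. Sox9 was nearly level, with 0.01, 0.22 and −0.07, although the whole class was lower in TripleTg. Elf3 had ratios of −0.05, −1.06 and 0.58, and Ehf of 0.11, 0.96 and 0.50. In these pairs 26.4%, 24.4% and 24.0% of genes differed by at least 2-fold in either direction.

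**Figure D2:**
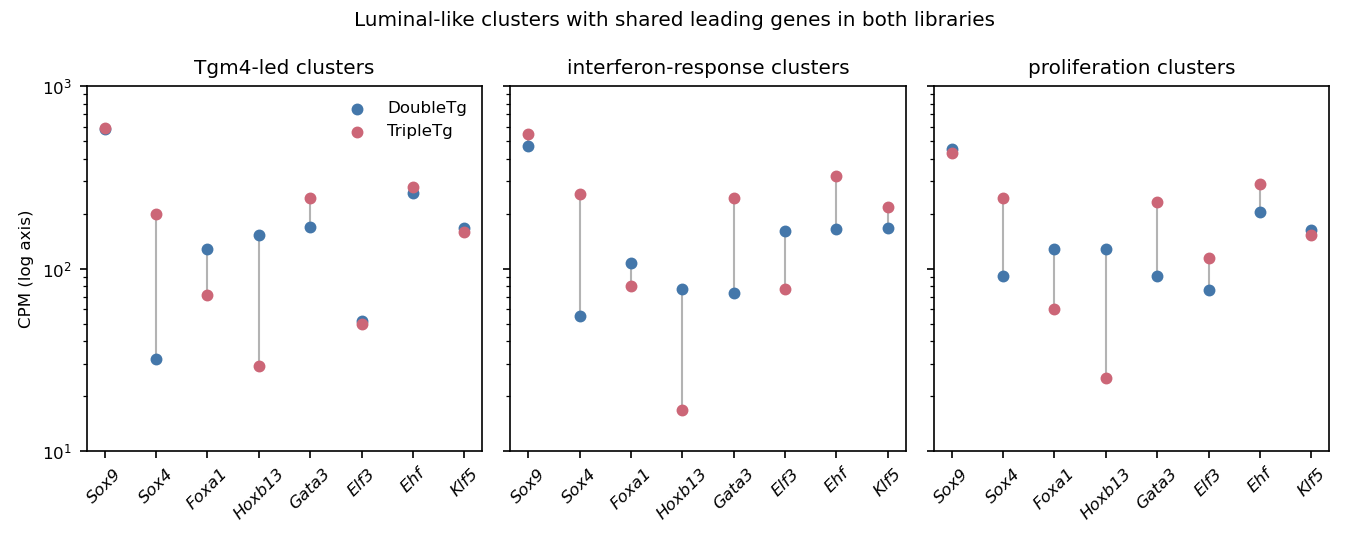
Level in CPM (log axis) of 8 factors in luminal-like clusters that share leading genes between DoubleTg (blue) and TripleTg (red), joined by a line. Sox4 is higher and Hoxb13 lower in TripleTg in all 3 pairs, and Sox9 is close to level.

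In basal-like cells Trp63 and the ETS factors were higher in TripleTg and Sox9 was lower. Trp63 was 15.9 CPM in DoubleTg and 57.5 CPM in TripleTg, a log2 ratio of 1.85, although the basal keratin and laminin markers that name the class summed lower there. Elf3 was 42.2 and 101 CPM, with a log2 ratio of 1.25 (1.15 to 1.35), and Ehf was 115 and 246 CPM, with 1.09 (1.03 to 1.16). Sox9 was 406 CPM in DoubleTg and 131 CPM in TripleTg, a log2 ratio of −1.63 (−1.68 to −1.57). Gata3 was 54.5 and 108 CPM, with a log2 ratio of 0.98 that lay just inside 2-fold, while 9230102O04Rik on the same strand was 2.29 and 7.66 CPM. The background in macrophage-like cells was also higher in TripleTg, 4.65 and 36.5 CPM for Elf3, 9.91 and 75.6 for Ehf and 9.91 and 75.8 for Gata3. For Trp63 it was 0 and 0.450 CPM, and for Sox9 33.8 and 96.8 CPM. The part of this background in the basal ratios was not tested. The TripleTg level of Sox9 was about that of TripleTg fibroblast-like cells (132 CPM), with thinned shares of cells of 34.1% and 23.9%.

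Sox4, much higher in TripleTg luminal-like cells, was not higher in the basal class, and Hoxb13 was lower there too, by less than 2-fold. Sox4 was 207 CPM in DoubleTg and 170 CPM in TripleTg, a log2 ratio of −0.28 (−0.34 to −0.23). Its antisense neighbour Gm26735 was 21.5 and 17.8 CPM. Hoxb13 was 12.8 and 6.65 CPM, with a log2 ratio of −0.95 (−1.20 to −0.70), from a DoubleTg level that was itself within the background. Foxa1 had a log2 ratio of −0.76 and Klf5 of 0.42. All 9 factors passed the floor. Of these, 3 were at least 2-fold higher in TripleTg, as were 14.0% of genes, and 1 was lower, as were 11.8%, with a median log2 ratio of 0.42 beside −0.07 over all 9126 genes.

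The TripleTg basal-like clusters were not alike. The Reg3b-led cluster of 338 cells held Trp63 at 21.1 CPM, Sox9 at 274 and Hoxb13 at 18.2. Of its 10 leading genes only Krt15 is on the basal marker list, and Cxcl17 is on a list of mucosal-type luminal genes. Reg3b, Reg3g, Cxcl5 and Cyp2f2 are also among the leading genes of DoubleTg luminal-like clusters. The cluster's mean log2 ratio over the other cells was 1.84 for the basal, 1.06 for the mucosal-type and 0.90 for a proximal-type luminal list, so its markers were mixed. In the Ifi202b-led cluster of 629 cells Trp63 was 66.1 CPM, Sox9 104 and Hoxb13 3.71. The Mt4-led cluster of 268 cells held 66.4, 71.0 and 4.11 CPM of the same genes. The mean log2 ratio of the basal list was 3.20 in the Ifi202b-led and 1.79 in the Mt4-led cluster, where no basal marker was among the 10 leading genes, so the names of the Reg3b-led and Mt4-led clusters are the less firm ones. Without the Reg3b-led cluster the TripleTg over DoubleTg log2 ratio moved to −2.06 for Sox9, to 2.06 for Trp63 and past 2-fold, to −1.73, for Hoxb13. The 2 DoubleTg basal-like clusters were closer, with Trp63 at 13.9 and 16.5 CPM and Sox9 at 464 and 390 CPM.

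**Figure D3:**
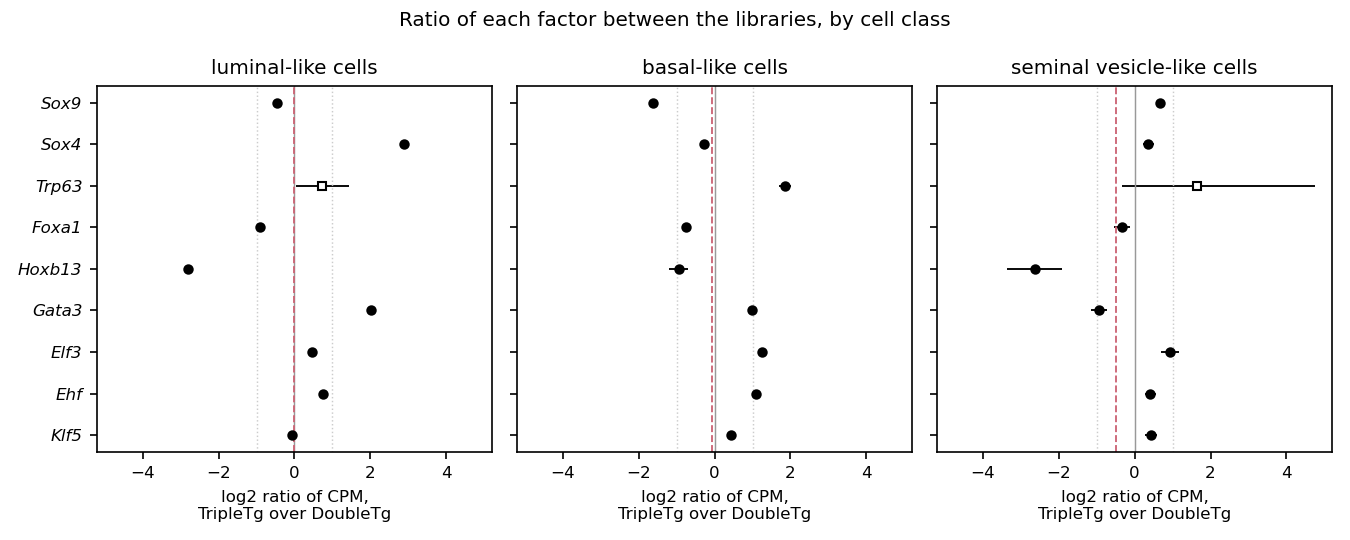
Log2 ratio of CPM, TripleTg over DoubleTg, of each factor by epithelial class, with 95% counting intervals; open squares did not pass 5 CPM, dotted lines mark 2-fold and the dashed red line is the median of all genes. Sox4 and Gata3 are to the right and Hoxb13 to the left in luminal-like cells, while Trp63 is to the right and Sox9 to the left in basal-like cells.

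Seminal vesicle-like cells held most of the factors at lower CPM than luminal-like cells, in a class where a few secretory genes took much of the RNA. Genes over 1% of UMIs held 41.1% of the UMIs of the class in DoubleTg and 49.4% in TripleTg, against 14.2% and 6.41% in luminal-like cells. Sox9 was 149 CPM in DoubleTg and 236 CPM in TripleTg, Ehf was 87.4 and 116 CPM, Klf5 was 73.7 and 99.7 CPM and Sox4 was 89.0 and 114.5 CPM. Foxa1 was 41.2 and 32.8 CPM, Elf3 was 33.6 and 63.9 CPM and Gata3 was 53.1 and 27.7 CPM. Trp63 had 2 UMIs in DoubleTg and 32 in TripleTg. Gata3 in the TripleTg cells lay below the background of 75.8 CPM, so it is read as background. In DoubleTg the levels of Sox9, Sox4 and Klf5 lay below those of fibroblast-like cells (262, 93.8 and 77.7 CPM), and Elf3 was level with T and NK-like cells (33.0 CPM). At 5000 UMIs Sox9 was found in 42.7% of DoubleTg seminal vesicle-like cells (64.6% unthinned). The share was 42.9% in fibroblast-like, 17.7% in T and NK-like and 10.2% in macrophage-like cells. Sox9 thus stood above macrophage-like cells (33.8 CPM) but not above fibroblast-like cells, and whether the latter express it themselves was not tested. The shares of Sox4 (31.5%), Klf5 (27.0%) and Elf3 (19.1%), which were 48.8%, 59.1% and 45.7% unthinned, lay above those of fibroblast-like cells (22.9%, 22.8% and 6.25%), although the levels of Sox4 and Klf5 did not. In TripleTg Sox4 lay above macrophage-like cells but below fibroblast-like cells (159 CPM). The antisense Gm26735 of Sox4 was 5.35 CPM in DoubleTg and 11.7 CPM in TripleTg. Gata3 shares its strand with 9230102O04Rik, which was 27.3 CPM in DoubleTg and 22.5 CPM in TripleTg, the latter close to the level of Gata3 itself.

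Against luminal-like cells of the same library, 8 factors passed the floor in each. In DoubleTg 6 were at least 2-fold lower in seminal vesicle-like cells (Sox9, Foxa1, Hoxb13, Elf3, Ehf and Klf5), as were 23.1% of genes. Sox4 was higher, with a log2 ratio of 1.21, as were 5.78% of genes, from a level no higher than that of fibroblast-like cells. In TripleTg 5 were lower (Sox4, Hoxb13, Gata3, Elf3 and Ehf), but 50.4% of all genes were, and none was higher, against 3.83%. The median log2 ratio of the factors was −1.42 in DoubleTg and −1.26 in TripleTg, and that of all genes −0.52 and −1.01. Hoxb13 was the factor furthest below, with log2 ratios of −4.10 and −3.95. With genes over 1% of UMIs left out of the totals, 4 factors in DoubleTg and 2 in TripleTg stayed past 2-fold, and Sox9 and Klf5 in TripleTg took the other sign with 0.08 and 0.05.

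Between the genotypes 8 factors, all but Trp63, passed the floor in seminal vesicle-like cells, and of these Hoxb13 alone differed by 2-fold. It was 7.45 CPM in DoubleTg and 1.20 in TripleTg, both within the background. Lower by 2-fold were 19.2% of genes and higher were 4.44%, with a median of −0.49. The log2 ratios of the others ran from −0.94 for Gata3 to 0.93 for Elf3, with 0.66 for Sox9, and their median with Hoxb13 was 0.39. These values rested on the mix of 2 TripleTg clusters. The Crisp1-led cluster of 420 cells held Sox9 at 288 CPM, Sox4 at 149 and Klf5 at 129, and the Sva-led cluster of 151 cells held 101, 24.9 and 25.2 CPM. Without the Crisp1-led cluster the log2 ratios turned to −0.56 for Sox9, −1.84 for Sox4, −1.55 for Klf5 and −0.47 for Ehf, and without the Sva-led cluster they were 0.95, 0.75, 0.81 and 0.64.

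The share of cells with at least 1 UMI of a factor was read beside its level. Cells were thinned to 5000 UMIs so that depth was equal, which left out 205 DoubleTg and 131 TripleTg luminal-like cells, 143 and 74 basal-like, 38 and 45 seminal vesicle-like, and 11 and 78 macrophage-like cells. It also left out 332 of 956 fibroblast-like, 116 of 276 endothelial-like and 105 of 438 T and NK-like cells of DoubleTg. In TripleTg 36 of 153 fibroblast-like and 82 of 243 endothelial-like cells were left out. The thinned shares of these classes are thus those of their deeper cells. Sox4 was found in 13.5% of DoubleTg and 63.5% of TripleTg luminal-like cells (41.6% and 88.3% without thinning). Gata3 was found in 27.0% and 67.6% (69.9% and 92.8% unthinned) and Hoxb13 in 37.6% and 9.40% (79.4% and 35.4% unthinned). In macrophage-like cells the thinned shares were 2.65% and 20.3% for Sox4, 3.41% and 14.3% for Gata3 and 2.27% and 0.661% for Hoxb13, so all 6 luminal shares lay above them. The luminal shares of Hoxb13 and Gata3 also lay above those of the fibroblast-like and endothelial-like cells of the same library, the highest of which were 7.69% for Hoxb13 in DoubleTg fibroblast-like cells and 15.5% for Gata3 in TripleTg endothelial-like cells. For Sox4 the DoubleTg luminal share lay below both classes (22.9% of fibroblast-like and 63.8% of endothelial-like cells), and the TripleTg share lay above fibroblast-like (53.0%) and below endothelial-like cells (70.2%). Median depth was 35446 and 25726 UMIs in luminal-like and 10324 and 9565 in macrophage-like cells before thinning.

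In basal-like cells Trp63 was found in 6.49% of DoubleTg and 21.2% of TripleTg cells at 5000 UMIs (14.1% and 46.3% unthinned), so most basal-like cells showed no UMI of it at this depth. Its share in luminal-like cells was 0.0627% and 0.0662%. Sox9 was found in 70.2% and 34.1% of basal-like cells (83.1% and 63.5% unthinned), and Sox4, whose level was similar, in 42.6% and 45.9% (61.4% and 73.6% unthinned). Hoxb13 was found in 5.87% and 2.87% of basal-like cells (13.3% and 11.5% unthinned), the first no more than in DoubleTg fibroblast-like cells. It was found in 1 of 526 TripleTg seminal vesicle-like cells, 0.190%, below the macrophage-like share. The median cell at this depth held UMIs of 4 of the 9 factors in the luminal class of both libraries and of 3 in the basal class of both.

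**Figure D4:**
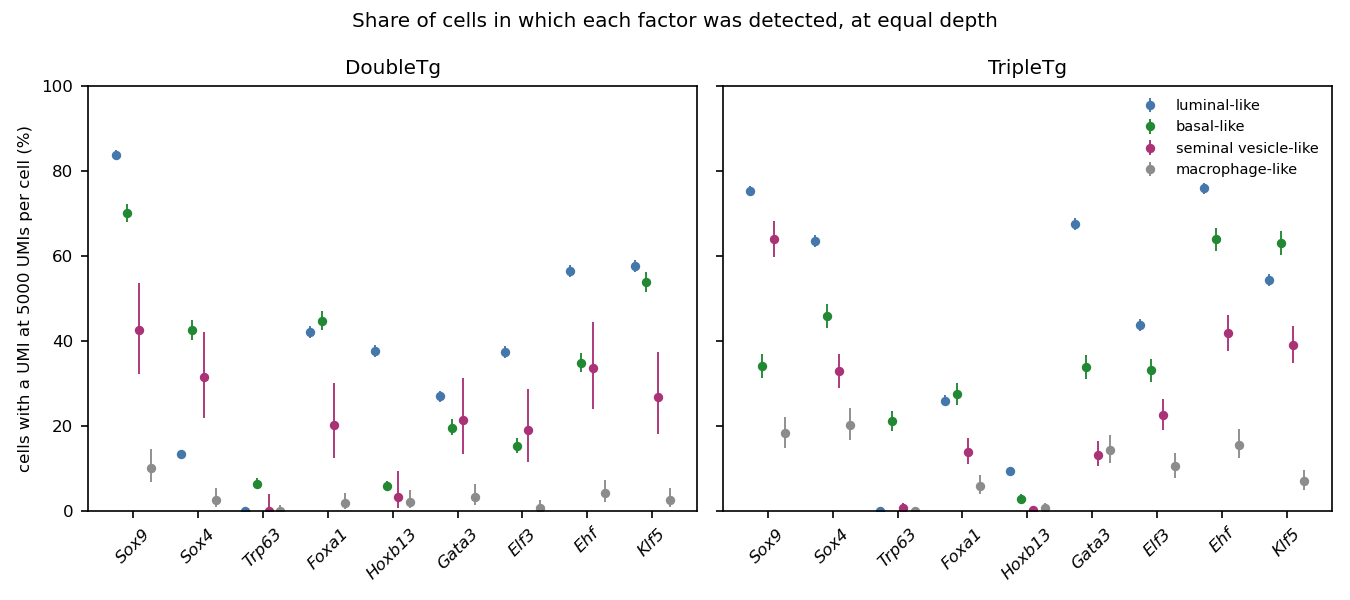
Share of cells (%) with at least 1 UMI of each factor after thinning to 5000 UMIs per cell, by class and library, with exact binomial 95% bars. Sox4 goes from 13.5% of luminal-like cells in DoubleTg to 63.5% in TripleTg and Hoxb13 from 37.6% to 9.40%; grey points are macrophage-like cells.

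In luminal-like cells the pairs Sox9 with Sox4 and Elf3 with Ehf were found in the same cells about as often as their single shares gave. At 5000 UMIs Sox9 and Sox4 were both found in 11.8% of DoubleTg luminal-like cells (10.9% to 12.8%), where the product of the shares was 11.3%. In TripleTg they were both found in 47.7% (46.2% to 49.1%), with a product of 47.8%. Elf3 and Ehf were both found in 21.2% and 33.9% of luminal-like cells, with products of 21.2% and 33.2%. In TripleTg basal-like cells Sox9 and Sox4 were both found in 18.2% (16.0% to 20.5%) against 15.7%, and Trp63 and Sox9 in 5.83% (4.56% to 7.32%) against 7.23%. In TripleTg macrophage-like cells, the background, pairs were found together more often than the products, Sox9 and Sox4 in 6.83% (4.69% to 9.55%) against 3.70% and Elf3 and Ehf in 4.41% (2.71% to 6.72%) against 1.65%. The part of mixed droplets in this was not tested.

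The human MET transgene is transcribed only where Cre has acted, and 9 DoubleTg luminal-like clusters had at least 20 cells with and 20 without an hMETtg UMI. In this library 69.5% of luminal-like cells had 1 at 5000 UMIs (83.2% unthinned), against 7.73% of basal-like and 24.7% of seminal vesicle-like cells. The 4 non-epithelial classes, which should lack it, held from 8.71% to 13.9%. At 5000 UMIs per cell, the log2 ratio of Elf3 in positive over negative cells had a median over clusters of 0.48. Its intervals lay above 0 in 5 of the 9 clusters, and the largest ratio was 1.08 (0.50 to 1.70) in the Tgm4-led cluster. The same counts were not made over all genes, so whether such a number is unusual for this split was not tested. Sox9 had a median of 0.12, with values of 0.78 in the Sbp-led and 0.77 (0.60 to 0.94) in the Tgm4-led cluster and of −0.44 in the proliferation cluster. Gata3 had a median of −0.15, with intervals below 0 in 3 clusters and above 0 in 1. It ran from −0.42 (−0.81 to −0.02) in the Msln-led cluster to 1.97 (0.48 to 3.92) in the proliferation cluster, the latter from 35 UMIs in 56 positive and 4 in 25 negative cells.

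The medians of the others in DoubleTg were −0.33 for Sox4, 0.04 for Foxa1, −0.16 for Hoxb13, 0.00 for Ehf and 0.18 for Klf5. In 6 TripleTg clusters with enough cells the medians lay between −0.31 for Foxa1 and 0.13 for Gata3, and Elf3 was 0.03. There 10.2% of luminal-like cells (34.5% unthinned), 10.7% of basal-like cells and 41.8% of seminal vesicle-like cells (68.5% unthinned) were positive. The share was 1.54% in macrophage-like, 4.97% in endothelial-like and 5.98% (2.44% to 11.9%) in fibroblast-like cells. The TripleTg luminal split is therefore not read as one of cells with and without Cre activity. In either library a cell without an hMETtg UMI may still express it and a cell with 1 may hold background.

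**Figure D5:**
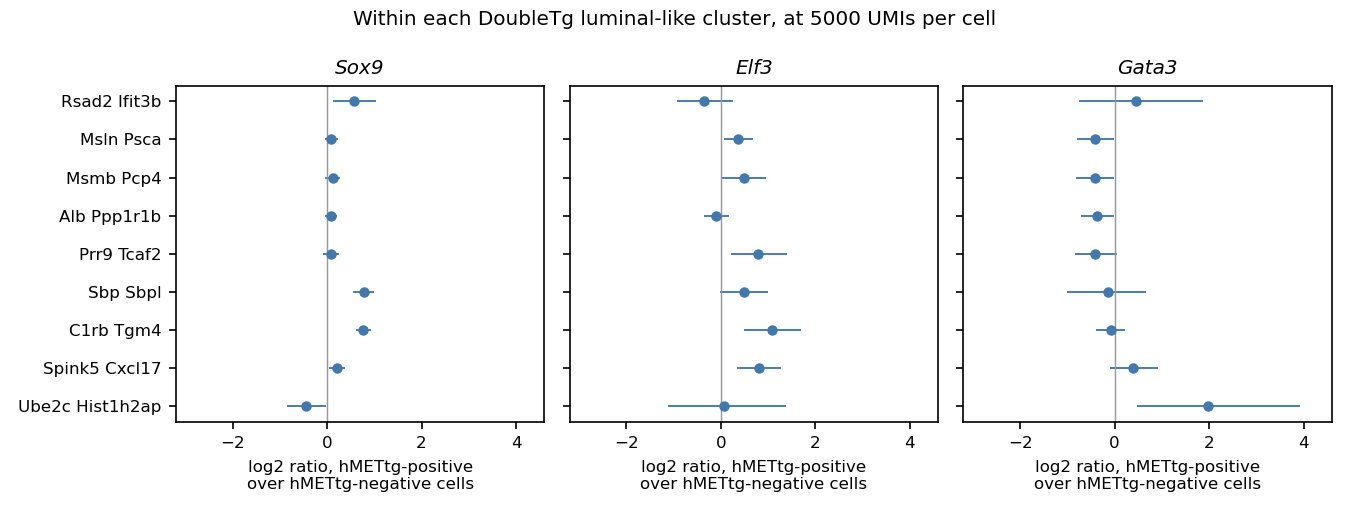
Log2 ratio of hMETtg-positive over hMETtg-negative cells within each of 9 DoubleTg luminal-like clusters, named by their leading genes, for Sox9, Elf3 and Gata3 at 5000 UMIs per cell, with 95% counting intervals. Intervals lie above 0 in 5 clusters for Elf3, 4 for Sox9 and 1 for Gata3, and below 0 in 0, 1 and 3. These counts were not made over all genes.

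Across 22 epithelial groups (the 18 luminal-like clusters and the basal-like and seminal vesicle-like class of each library), the factors formed a few patterns. Ehf and Gata3 had a Pearson r of 0.83 on log2(CPM + 1), Gata3 and Sox4 of 0.72, and Hoxb13 and Foxa1 of 0.71. Hoxb13 and Sox4 ran opposite to each other, with r of −0.73. These are descriptions, since groups of 1 library share its depth, its background and its animals. The differences between the libraries given above enter these values, and r within each library was not computed. Trp63 was low outside the basal-like classes, so its r values rest on those classes. Of 7304 genes ranked for likeness, Sox4 was closest to its antisense neighbour Gm26735 (r 0.97), then Ttc39b and Pcdh7. Trp63 was closest to Gm13219 (0.98), Upk3bl and Ptpre, Gata3 to Lrrc16a (0.97), Gtf2b and Ubl3, and Hoxb13 to Med22 (0.96) and Pgap2. Foxa1 was closest to Stk11 (0.95), Gprc5a and Mkl2, and Ehf to Tnrc6b (0.94), Dlg3 and Pik3cb. For Klf5 these were Rasa2 (0.91), Wasl and Hivep1, for Elf3 AI661453 (0.89), Zdhhc9 and Atp10b, and for Sox9 Errfi1 (0.89), Fam3c and Pdia3.

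A list of 46 further regulators of epithelial cells, all transcription factors but the splicing factor Esrp1, gave the setting, and 45 had a feature. In luminal-like cells 25 passed the floor, and 9 were at least 2-fold higher and 4 lower in TripleTg, with a median log2 ratio of 0.17. Over all genes in this comparison 11.7% were higher and 12.7% lower. With at least 20 CPM in either library, the highest ratio was that of Elf5, an ETS factor of secretory epithelium and a relative of Elf3 and Ehf, at 0.677 CPM in DoubleTg and 114 CPM in TripleTg. Tfap2c (2.38 and 22.2 CPM) and Tbx3 (24.6 and 95.5 CPM) followed. Among those lower in TripleTg, at the same limit, Esrp1 had a log2 ratio of −0.38 and Elf1 of −0.19.

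In basal-like cells 30 of these regulators passed, and 10 were higher and 2 lower in TripleTg, against 14.0% and 11.8% of all genes. Grhl3, a factor of barrier formation, was 10.00 CPM in DoubleTg and 65.8 CPM in TripleTg, and Gata2 and Trps1 of the GATA family had log2 ratios of 1.88 and 1.33. With at least 20 CPM in either library, Cebpa (−1.45), Klf6 (−0.92) and Cebpb (−0.74) had the lowest log2 ratios. In seminal vesicle-like cells 21 passed, 2 higher and 4 lower, against 4.44% and 19.2% of all genes, with Foxq1 at 1.31 and Runx1 at 0.45 among the highest log2 ratios and Gata2 at −1.60 and Elf5 at −0.82 among the lowest. Of 27 that passed in DoubleTg, 10 were higher and 5 lower in basal-like than in luminal-like cells, against 18.2% and 19.4% of all genes. Of 30 in TripleTg, 12 were higher and 2 lower, against 10.7% and 7.02%. In seminal vesicle-like over luminal-like cells of DoubleTg, 1 of 24 was higher and 12 were lower, against 5.78% and 23.1% of all genes. In TripleTg 17 of 22 were lower, where 50.4% of all genes were.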

How the data were processed

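A single droplet library (10x Genomics, 3′ ends) per genotype was used. The deposited matrices hold raw UMI counts that the authors made with Cell Ranger (6.0.2 in the submitters' processing notes, 6.1.1 in the header of the DoubleTg matrix) on mm10 with both transgenes added. The study's limits on genes and mitochondrial UMIs were applied. The study gives another number of DoubleTg cells before and after filtering than the 12072 and 10598 found here, while the TripleTg number after filtering is the same. Each library was clustered with scanpy 1.11.5 (2000 variable genes without the 9 members, 20 components, 15 neighbours, Leiden resolution 1) into 25 and 26 clusters, named from marker lists with thresholds set after the clusters were seen. Shallow clusters (1409 and 1703 cells, median UMIs well under the library's, by a divisor of 3) and mixed ones (142 TripleTg cells) stayed unnamed and unused. Scrublet marked 243 DoubleTg cells and 1 TripleTg cell. Why so few were marked in TripleTg was not tested, its calls there are not taken as a count of doublets, and no cell was removed as a doublet.

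CPM are the UMIs of a class or cluster over its total. Intervals for CPM are exact Poisson, those for shares exact binomial and those for ratios conditional binomial. The floor was 5 CPM in either group, and calls are at 2-fold. Any hMETtg UMI made a cell positive. Cells were thinned without replacement. Positions are GENCODE vM21 gene spans on GRCm38. Named genes are the 9 members, the 3 highest and 3 lowest of the context list with at least 20 CPM, and the 3 genes most like each member. Some genes that this rule names are not reported here. Steps were tested on simulated data. TMM factors came from edgeR 4.0.16. The members and lists were chosen with earlier results of these data known.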

Additional observations from a re-analysis of the deposited data

How the results depend on the processing

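The log2 ratios of the 9 factors in 7 comparisons were recomputed under 15 settings, of which 929 of 943 values kept the sign of the main analysis. Of the ratios past 2-fold in the main analysis, 0 reversed. Another 2, both under 2-fold there, took the other sign past 2-fold in seminal vesicle-like cells between genotypes without the Crisp1-led cluster, Sox4 (0.36 to −1.84) and Klf5 (0.44 to −1.55). The counts of factors past 2-fold in the luminal-like and basal-like comparisons stayed within 1.5 times the main count under every setting run. The count for seminal vesicle-like cells between genotypes was 1, and was 3 with TMM factors, 3 without the 5% of cells with the highest doublet scores, 2 without genes over 1% of UMIs in the totals, 2 without the Sva-led cluster, 5 without the Crisp1-led cluster, 2 at a floor of 1 CPM and 0 at a floor of 20 CPM. For seminal vesicle-like over luminal-like cells the count of 7 in DoubleTg became 4 without genes over 1% of UMIs. In TripleTg the count of 5 became 2 with TMM factors, 2 without genes over 1% of UMIs and 8 without the Crisp1-led cluster. The settings that leave out a cluster, doublet scores or genes over 1% of UMIs were chosen after seeing the data, and the causes were not tested beyond what each setting leaves out. No paired analysis was possible because each genotype has 1 library and no test was run. Depth limits Trp63 in luminal-like cells and Hoxb13 in seminal vesicle-like cells, where sums were under 50 UMIs in each library.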

Other observations

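Small epithelial clusters that met no class rule held other mixes of the factors. In DoubleTg 50 cells led by Atp6v1g3 and Foxi1, genes of proton-pumping ionocyte-type cells, held Sox4 at 767 CPM (701 to 837), above each luminal-like and basal-like cluster of that library, and Sox9 at 410 CPM. Sox4 had a UMI in 74.5% of the 47 of these cells that could be thinned to 5000 UMIs, and in 92.0% of all 50. Hoxb13 stood at 1.53 CPM there and Trp63 at 9.19 CPM. In TripleTg 82 cells led by Tchh and Krt73, genes of the hair follicle's inner root sheath, held Gata3 at 400 CPM (377 to 425), Ehf at 358 CPM and Elf3 at 211 CPM, with Sox4 at 103 CPM and Hoxb13 at 6.72 CPM. These clusters were chosen after their values were seen, and each comes from 1 library.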
